A study of Mus musculus with 2 samples.

Results

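AP-1 (activator protein 1) is a family of dimeric transcription factors, and 10 genes for its subunits were followed here by name: Fos, Fosb, Fosl1, Fosl2, Jun, Junb, Jund, Batf, Batf3 and Atf2. All 10 were found among the 30491 genes listed for this series, as 40 transcripts. The RNA came from muscle-resident fibro/adipogenic progenitors (FAPs), stromal cells that give rise to fibroblasts and fat cells, freshly sorted as primary cells from wild-type mice and cultured in medium with 20% fetal bovine serum. In the Musclin group 1 µM mouse recombinant Musclin, a peptide secreted by muscle, was present for 24 h. The vehicle group had the same cells, medium and time with an equal amount of vehicle. With 1 library in each group, differences between them could not be checked against replicates, and no test was run. The column read as vehicle carries the code BSA and was assigned to that sample because the series has 2 samples, so each direction rests on that assignment. The sources used here do not give the age or sex of the mice, or say whether a library was 1 culture or a pool.

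AP-1 proteins carry a basic region that contacts DNA and a leucine zipper that holds the pair together. Jun proteins can pair with each other or with Fos proteins, whereas Fos proteins depend on a Jun partner. Jun-Fos pairs bind the AP-1 site, and pairs that contain Atf2 favour the related cyclic AMP response element (CRE). Several of these genes are immediate-early genes, transcribed briefly after serum or a growth factor is added, and their products drive matrix metalloproteinase, cytokine and cell cycle genes in fibroblasts.

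The regulatory sequence in front of Jun, Fos and Junb is shown because AP-1 proteins act on the promoters of their own genes. These members also differ from each other in level, as given below. The stretches are the 250 bases before the start site in RefSeq (build GRCm38.p6), written 5′ to 3′, with matches to the motifs searched in capitals. Jun lies on the minus strand at chr4:95052223-95052472, Fos on the plus strand at chr12:85473640-85473889, and Junb on the minus strand at chr8:84978749-84978998.
Jun: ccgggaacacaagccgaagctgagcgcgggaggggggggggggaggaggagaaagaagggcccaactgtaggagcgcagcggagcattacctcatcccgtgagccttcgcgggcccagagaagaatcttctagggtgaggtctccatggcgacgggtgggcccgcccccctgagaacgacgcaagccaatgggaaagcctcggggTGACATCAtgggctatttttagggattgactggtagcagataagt
Fos: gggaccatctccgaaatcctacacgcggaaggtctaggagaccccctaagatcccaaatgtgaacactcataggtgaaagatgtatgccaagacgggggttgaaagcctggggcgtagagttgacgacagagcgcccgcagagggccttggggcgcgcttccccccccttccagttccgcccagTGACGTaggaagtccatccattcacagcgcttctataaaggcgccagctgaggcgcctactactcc
Junb: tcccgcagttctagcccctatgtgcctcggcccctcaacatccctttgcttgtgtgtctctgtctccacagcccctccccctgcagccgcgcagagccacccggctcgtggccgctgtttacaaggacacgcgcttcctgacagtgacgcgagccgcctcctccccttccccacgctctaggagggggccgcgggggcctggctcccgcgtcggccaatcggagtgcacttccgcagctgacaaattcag

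The motifs were the AP-1 site TGANTCA, the CRE-type site TGANNTCA, the CRE half-site TGACGT and the serum response element, each on both strands and with N for any base. The Jun stretch holds 1 CRE-type match, TGACATCA, from 45 to 38 bases before the start. The Fos stretch holds 1 CRE half-site, from 66 to 61 bases before the start. The Junb stretch holds none of these letters. Bases farther upstream than 250 were not searched, so a motif without a match here may lie outside the stretch. Of 32536 different promoter stretches of the same length, 6.73% hold the AP-1 site, 11.9% the CRE-type site, 6.50% the CRE half-site and 1.48% the serum response element, so matches of this kind are not rare. RefSeq stretches were matched for 9 members. Fosl1 was not matched. The RefSeq start coincides with the start of the transcript in the table for Jun and Fos and lies 30 bases upstream of it for Junb. For Jund it lies 1210 bases upstream of the start in the table, so that stretch is not shown.

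The unit of level is FPKM, a fragment count adjusted for transcript length and library size, here summed over a gene's listed transcripts. Read from steps in the values, the aligned bases came to 6.69 Gb under Musclin and 6.76 Gb under vehicle. A fragment equivalent is 298 aligned bases, a read pair. The aligned-base ratio is the Musclin library's share of aligned bases on a gene over the vehicle library's share, and its 95% interval (exact Clopper-Pearson) covers counting error only. A gene was counted as measured at 1 FPKM or more in either library, and as past 2-fold where the log2 ratio of FPKM + 1, a scale that shrinks differences of low genes, reached 1 in either direction. The FAP markers Pdgfra (87.2 FPKM under Musclin and 79.9 FPKM under vehicle) and Ly6a (284 and 224 FPKM) were high in both libraries, and the matrix gene Dcn was at 181 and 64.8 FPKM. Pdgfrb (181 FPKM under Musclin and 271 FPKM under vehicle) and Thy1 (83.4 and 106 FPKM) were lower under Musclin, so these markers did not move one way. Of 10 FAP markers 7 were measured, while Dpp4, Pi16 and Lum lay under 1 FPKM in both. Summed over the markers found in the table, 13 of 14 leukocyte markers came to 14.4 FPKM under Musclin and 18.9 FPKM under vehicle, all 5 endothelial markers to 3.08 and 5.44 FPKM, and 4 of 6 myogenic markers to 0.535 and 1.23 FPKM. Lyz2, a myeloid gene, was at 8.46 FPKM under Musclin and 14.1 FPKM under vehicle, Csf1r, a macrophage receptor gene, at 1.61 and 0.532 FPKM, Cd68 at 3.03 and 2.86 FPKM, and the B cell gene Cd79a was listed at 0 in both. The part of other cells in the results was not tested.

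None of the AP-1 subunit genes was past 2-fold after 24 h under Musclin. Of the 10 genes 7 were measured, and Fosb, Batf and Batf3 lay under 1 FPKM in both libraries. Of 12884 measured genes 3.23% were past 2-fold, 1.71% higher and 1.52% lower under Musclin, so a count of 0 among 7 is near that background. Among the 7, Junb, Fosl2 and Fosl1 were higher with counting intervals above 1, Jund and Atf2 were lower with intervals below 1, and the intervals of Fos and Jun included 1. The median aligned-base ratio of measured genes was 0.979, which lies inside the Atf2 interval (0.848 to 0.982). Over all measured genes 26.6% had an interval above 1 and 31.0% an interval below 1, so such an interval is common at this depth and does not set these genes apart. The median log2 ratio of the 7 genes was 0.08 and their range ran from -0.45 to 0.51. Over all measured genes the median was -0.02, with a 5th to 95th percentile from -0.59 to 0.62.

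**Figure D1:**
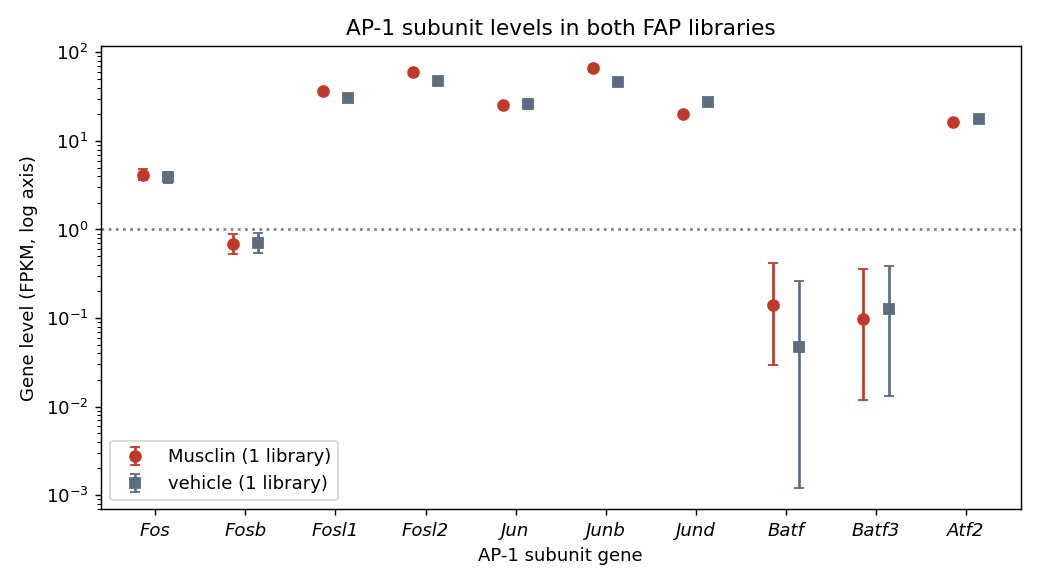
Level of each AP-1 subunit gene in FPKM on a log axis, under Musclin (circles) left of vehicle (squares), 1 library each. Bars are 95% Poisson intervals for counting error, and the dotted line marks 1 FPKM. Junb, Fosl2, Fosl1, Jun, Jund and Atf2 lie above 15 FPKM in both libraries, Fos near 4 FPKM, and Fosb, Batf and Batf3 under 1 FPKM.

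The Fos subfamily was led by the Fos-related antigens, not by Fos itself. Fosl2 encodes FRA-2, a Fos protein without the strong activation domain of c-FOS that has been linked to tissue fibrosis. It lies on chromosome 5 (GRCm38, 32135801 to 32157842, plus strand) and was at 59.5 FPKM under Musclin and 47.5 FPKM under vehicle (8619 and 6951 fragment equivalents), an aligned-base ratio of 1.25 (95% interval 1.21 to 1.29). Fosl1 encodes FRA-1, which shares that lack and is itself induced by AP-1. It lies on chromosome 19 (5447547 to 5455946, plus strand) and was at 36.9 FPKM under Musclin and 30.7 FPKM under vehicle, a ratio of 1.21 (1.12 to 1.30). Both were higher under Musclin, and in bulk RNA more cells of a type and more RNA per cell cannot be told apart. Part of the Fosl1 transcript overlaps Ccdc85b, a gene on the opposite strand at 12.2 FPKM under Musclin and 8.44 FPKM under vehicle. The part of Ccdc85b in the Fosl1 ratio was not tested.

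Fos, the immediate-early gene for c-FOS on chromosome 12 (85473890 to 85477273, plus strand), was at 4.17 FPKM under Musclin and 3.87 FPKM under vehicle. Its ratio of 1.08 (0.873 to 1.34), from 186 and 174 fragment equivalents, included 1, so no difference was detectable at this depth. Fosl2 stood 14.3 times as high as Fos under Musclin and 12.3 times as high under vehicle. Fosb, whose product is known for its long-lived short form deltaFosB, lies on chromosome 7 (19302696 to 19310051, minus strand) and was at 0.694 FPKM under Musclin and 0.701 FPKM under vehicle. Its ratio of 0.993 (0.681 to 1.45) rests on 59 and 60 fragment equivalents. Fos and Fosb were thus low in both libraries at 24 h, while Junb and Jun, given below, were not. Fosl2 supplied 58.7% of the summed Fos subfamily level under Musclin and 57.4% under vehicle, and Fosl1 36.5% and 37.1%.

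**Figure D2:**
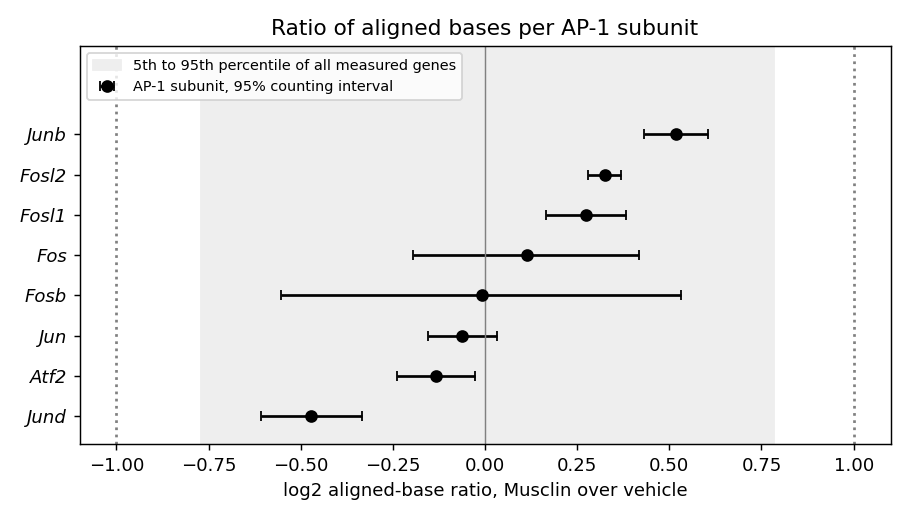
Log2 aligned-base ratio, Musclin over vehicle, of the 8 AP-1 subunit genes with over 50 fragment equivalents, with 95% counting intervals. The grey band is the 5th to 95th percentile of measured genes (-0.77 to 0.78) and the dotted lines mark 2-fold. Junb lies farthest to the right and Jund farthest to the left, and all 8 points lie inside the band.

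The Jun subfamily had its members on both sides of 0. Junb encodes JUNB, a weaker activator than c-JUN that can restrain it on some promoters. It lies on chromosome 8 (84976910 to 84978718, minus strand) and was at 65.8 FPKM under Musclin and 46.0 FPKM under vehicle (2674 and 1886 fragment equivalents), a ratio of 1.43 (1.35 to 1.52). Its log2 ratio of 0.51 lay at the 92.8th percentile of measured genes. The Junb transcript is not marked significant in the authors' deposited table.

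Jund encodes JUND, which is present in resting fibroblasts and has been described as a brake on their growth. It lies on the same chromosome (70698949 to 70700616, plus strand) and was at 19.9 FPKM under Musclin and 27.6 FPKM under vehicle (745 and 1043 fragment equivalents), 1.39-fold lower in aligned bases (1.26 to 1.53). Its log2 ratio of -0.45 lay at percentile 8.93. The Jund transcript is likewise not marked significant in the authors' deposited table. Jun, the gene for c-JUN on chromosome 4 (95049034 to 95052222, minus strand), was at 25.3 FPKM under Musclin and 26.4 FPKM under vehicle, a ratio of 0.958 (0.898 to 1.02) that included 1.

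These values shifted the make-up of the Jun transcript pool toward Junb in the Musclin library. Junb held 59.3% of the summed Jun subfamily level under Musclin and 46.0% under vehicle, and Jund 17.9% and 27.6%. Junb was 3.31 times the level of Jund under Musclin and 1.67 times under vehicle. The subfamily sum itself was 111 FPKM under Musclin and 99.9 FPKM under vehicle, 1.11-fold. The Fos subfamily sum was 101 FPKM under Musclin and 82.8 FPKM under vehicle, 1.22-fold.

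**Figure D3:**
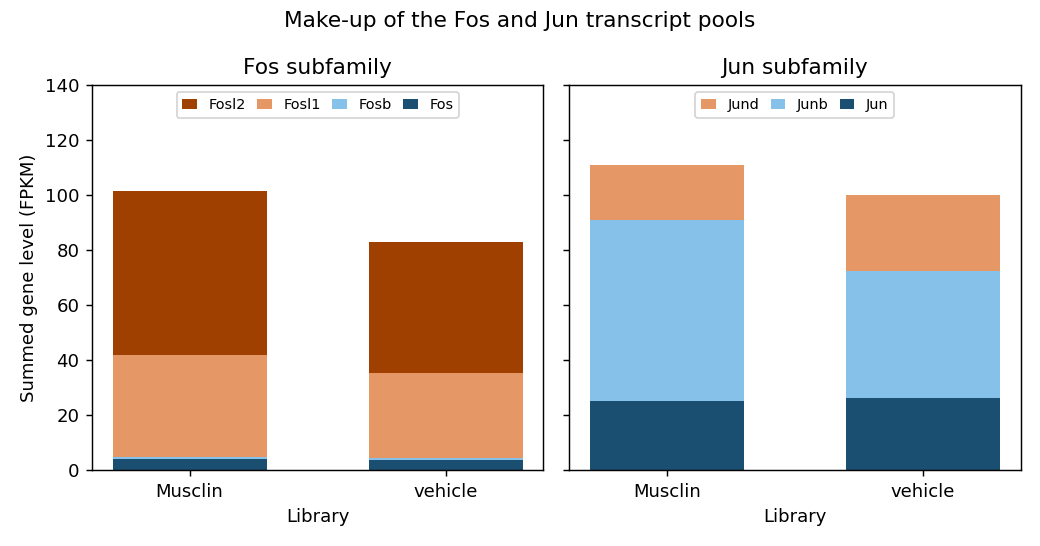
Summed level (FPKM) of the Fos subfamily (left panel) and Jun subfamily (right panel), divided by gene, under Musclin left of vehicle in each panel, 1 library each. In the Jun panel Junb takes 59.3% of the bar under Musclin and 46.0% under vehicle, while in the Fos panel Fosl2 takes 58.7% and 57.4%.

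The order of levels differed between the libraries among the more abundant members. With Musclin it ran Junb, Fosl2, Fosl1, Jun, Jund, Atf2, Fos, Fosb, Batf, Batf3, and the counting intervals of neighbours overlapped only for Batf and Batf3. With vehicle it ran Fosl2, Junb, Fosl1, Jund, Jun, Atf2, Fos, Fosb, Batf3, Batf. There the intervals overlapped between Fosl2 (46.4 to 48.6 FPKM) and Junb (43.9 to 48.1 FPKM), between Fosl1 and Jund, between Jund and Jun, and between Batf3 and Batf. Among measured genes Junb lay at the 92.8th percentile of level under Musclin and the 89.5th under vehicle, and Fos at the 28.9th and 26.6th.

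Atf2 was slightly lower under Musclin, and the Batf genes had the lowest levels of the members. Atf2, a CRE-binding factor activated by stress kinases (chromosome 2, 73816509 to 73892639, minus strand), was at 16.4 FPKM under Musclin and 17.9 FPKM under vehicle, 1.10-fold lower in aligned bases (1.02 to 1.18). Batf and Batf3 encode short AP-1 proteins without an activation domain, best known from lymphocytes and dendritic cells. Batf lies on chromosome 12 (85686669 to 85709087) and Batf3 on chromosome 1 (191097847 to 191108945), both on the plus strand. Batf was at 0.142 FPKM under Musclin and 0.0473 FPKM under vehicle, from 3 fragment equivalents and 1, a ratio of 3.03 (0.243 to 159). Batf3 was at 0.0981 FPKM under Musclin and 0.126 FPKM under vehicle, from 2 fragment equivalents each, a ratio of 0.857 (0.0732 to 13.9). At these counts no difference was detectable for either gene. Ptprc, which encodes the pan-leukocyte marker CD45, was at 0.383 FPKM under Musclin and 0.644 FPKM under vehicle, and Clec9a, a marker of Batf3-dependent dendritic cells, at 0.231 and 0.0874 FPKM.

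Most members were carried by 1 protein-coding transcript, and none of the 40 member transcripts is marked significant in the authors' deposited table. Jun, Junb and Jund, which are genes without introns, have 1 listed transcript each. The protein-coding transcript held 97.5% of Fosl2 under Musclin and 97.6% under vehicle, 96.0% and 95.5% of Fosl1, and 90.8% and 90.04% of Fos. The retained-intron transcript Fosl2-202 was at 1.11 FPKM under Musclin and 0.767 FPKM under vehicle, from 86 and 60 fragment equivalents. That of Fosb, Fosb-204, was at 0.0822 and 0.140 FPKM, from 7 and 12.

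Fosb can make a full-length protein or deltaFosB, which lacks the C-terminal end, and the sequences at the point where they part are shown. The full-length transcript Fosb-201 reads through its last exon. In Fosb-206 and Fosb-207 a 140-base intron inside that exon (chr7:19305007-19305146, GRCm38, minus strand) is removed. The 15 bases they share before this point are in capitals, and a TGA stop codon follows at once in the spliced form.
Full-length form: GGCCCGCTGGCCGAGgtgagagatttgcca
Spliced form: GGCCCGCTGGCCGAGtgaagttcaagtcct

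The full-length Fosb-201 was at 0.612 FPKM under Musclin and 0.560 FPKM under vehicle, from 52 and 48 fragment equivalents. The spliced transcripts Fosb-206 and Fosb-207 were listed at 0 in both libraries. The coding part without its stop codon has 1014 bases in Fosb-201 and 711 bases in Fosb-206. With about 60 fragment equivalents on the whole gene, few can span a junction, so the listing at 0 says little about how much of the spliced form was present.

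Atf2 was divided over 17 listed transcripts, 7 of them at 0.5 FPKM or more in a library. Atf2-205 led at 6.77 FPKM under Musclin and 8.04 FPKM under vehicle, followed by Atf2-206 at 3.97 and 4.09 FPKM. Atf2-204 was at 1.37 FPKM under Musclin and 0.730 FPKM under vehicle. Its fold of 1.87 in the authors' deposited table is not marked significant there. Atf2-202 was listed at 0 under Musclin and at 0.792 FPKM under vehicle. These transcripts share most of their exons, and an estimate from short reads can move fragments between them. The sum over the gene does not depend on that division except through transcript length.

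**Figure D4:**
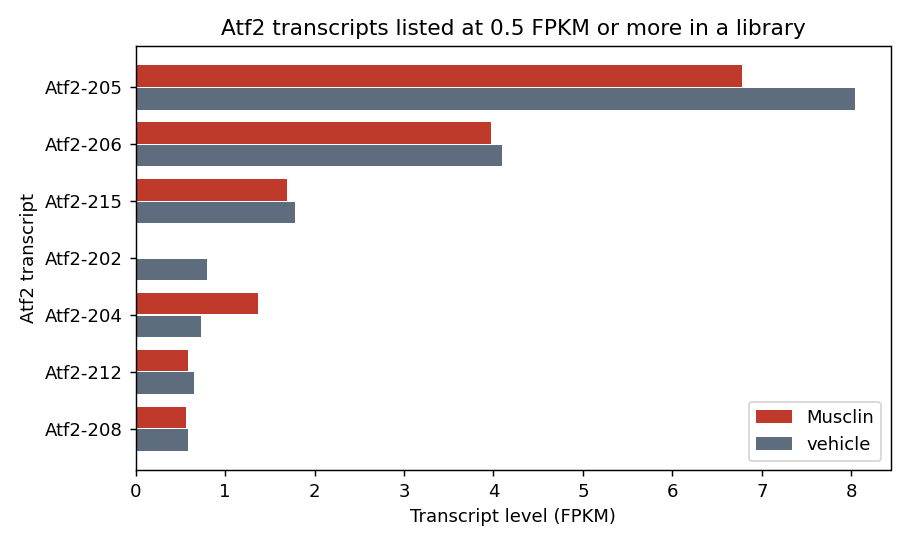
Level (FPKM) of the Atf2 transcripts at 0.5 FPKM or more in a library, with the Musclin bar above the vehicle bar, 1 library each. Atf2-205 leads at 6.77 FPKM under Musclin and 8.04 FPKM under vehicle, and Atf2-202 has no Musclin bar because it is listed at 0 there.

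Reads can be assigned to some members with less certainty than to others. The longest identical run between the leading transcripts of any pair of members was 24 bases (Fosl2 and Atf2), and within the Fos and Jun subfamilies 20 bases (Jun and Jund), far shorter than a read of 149 bases. Overlap with genes on the opposite strand was larger. Of the 149-base windows of Fosl1, 52.9% also occur in reverse in Ccdc85b, a neighbour on chromosome 19 at 12.2 FPKM under Musclin and 8.44 FPKM under vehicle. Of the windows of Jund, 38.4% occur in reverse in Gm11175, listed at 0.117 FPKM under Musclin and at 0 under vehicle, and 2.76% of those of Jun in Junos, at 5.45 and 3.79 FPKM. The sources used here do not say whether the libraries kept strand, so reads of Fosl1 and Jund cannot be told apart from those of their antisense partners in these stretches. Junb, Fosl2, Fos, Fosb and Atf2 shared no such window with another gene's transcripts.

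A chosen list of other basic leucine zipper genes, among them partners and competitors of AP-1, held more genes lower under Musclin than higher. The list does not cover the whole family. On this list 19 genes were measured, of which 5 were at least 2-fold lower, none was 2-fold higher and 14 were neither. Over all measured genes 1.52% were 2-fold lower. The list was drawn up with earlier results of these libraries known, so its count is no independent evidence. The list's median log2 ratio was -0.30, against -0.16 on the leading transcript alone. The lower genes included Ddit3 (26.2 FPKM under Musclin and 126 FPKM under vehicle), Atf5 (34.0 and 98.9 FPKM) and Atf4 (69.0 and 152 FPKM), factors of the integrated stress response. Atf3, a stress-induced repressor, was the fifth, at 0.710 FPKM under Musclin and 4.61 FPKM under vehicle, and was named after its values were seen.

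Jdp2 is among these lower genes, and its product pairs with Jun proteins and represses their targets. It was at 8.005 FPKM under Musclin and 19.5 FPKM under vehicle, from 294 and 726 fragment equivalents. It lies between Fos and Batf on chromosome 12 (GRCm38, 85599027 to 85639878), 122 kb from the end of Fos and 46.8 kb before the start of Batf. Of these 3 neighbours on the plus strand Jdp2 was past 2-fold, the interval of Fos included 1, and Batf had too few fragments for a comparison.

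The kinases and serum response factors above AP-1 stayed within 2-fold with 1 exception. Of 24 measured MAP kinase pathway genes 1 was 2-fold or more higher and none lower, beside 1.71% of all measured genes higher and 1.52% lower, with a median log2 ratio of 0.08 (-0.03 on the leading transcript alone). No gene of the list was 2-fold higher at a pseudocount of 5 or on the leading transcript alone, where 1 gene was 2-fold lower. The higher gene was Mapk13, a p38 kinase gene, at 5.45 FPKM under Musclin and 1.84 FPKM under vehicle. Rps6ka4, which encodes the kinase MSK2, was at 46.9 FPKM under Musclin and 31.7 FPKM under vehicle. Map2k3, a p38 activator gene, was at 48.8 and 33.7 FPKM and Map2k1, which encodes MEK1, at 68.8 and 49.4 FPKM. Map2k5, upstream of ERK5, was at 7.76 FPKM under Musclin and 10.8 FPKM under vehicle. Mapk8 and Mapk9, genes for JNK kinases that phosphorylate c-JUN, were named after their values were seen and were at 9.59 FPKM under Musclin and 9.65 FPKM under vehicle (Mapk8) and at 19.6 and 20.0 FPKM (Mapk9).

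None of the 6 measured genes for serum response factor and its cofactors was past 2-fold, though 1 was 2-fold higher on the leading transcript alone. Their median log2 ratio was 0.36. Srf was at 20.8 FPKM under Musclin and 15.8 FPKM under vehicle, and the coactivator gene Mrtfa at 31.4 and 21.7 FPKM. Elk3 was at 22.0 FPKM under Musclin and 16.2 FPKM under vehicle, Mrtfb at 9.80 and 7.59 FPKM, and Elk4 at 9.95 and 11.1 FPKM. None of 12 measured genes for RNA decay factors and ubiquitin ligases that act on AP-1 messages or proteins was past 2-fold, with a median log2 ratio of 0.15. That median was 0.04 on protein-coding transcripts, 0.0064 in aligned bases and -0.03 on the leading transcript alone. Zfp36l1, a decay factor for AU-rich messages, was at 25.3 FPKM under Musclin and 19.2 FPKM under vehicle, and its relative Zfp36l2 at 43.6 and 55.6 FPKM. Trib1 was at 5.56 FPKM under Musclin and 4.26 FPKM under vehicle, and Det1, part of the COP1 ligase that marks c-JUN for destruction, at 6.02 and 8.04 FPKM. Dcaf10 was at 6.26 FPKM under Musclin and 4.86 FPKM under vehicle, but its aligned-base ratio was 1.00 (0.901 to 1.11), from 722 and 729 fragment equivalents.

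Several genes known as AP-1 targets were higher under Musclin. Of 24 measured targets, a list that holds Fosl1 itself, 10 were at least 2-fold higher under Musclin, none was 2-fold lower and 14 were neither. Over all measured genes 1.71% were 2-fold higher. The list's median log2 ratio was 0.39, against 0.27 with no expression floor. The metalloproteinase genes Mmp10 (23.4 FPKM under Musclin and 0.184 FPKM under vehicle), Mmp3 (165 and 14.2 FPKM) and Mmp13 (15.3 and 1.14 FPKM) were among them, as were the cytokine genes Il6 (41.8 and 4.22 FPKM) and Ccl2 (693 and 85.5 FPKM). Lif, Ptgs2, Ereg, Il11 and Plau made up the rest and were chosen for naming once their values were known, as were Ccnd1 and Hmox1. Ptgs2, which encodes the prostaglandin enzyme COX-2, was at 165 FPKM under Musclin and 46.1 FPKM under vehicle. Ereg, a growth factor of the EGF family, was at 37.3 and 11.7 FPKM, and Plau, which encodes urokinase, at 58.9 and 24.8 FPKM. At the other end Ccnd1, which encodes cyclin D1, was at 51.6 FPKM under Musclin and 74.4 FPKM under vehicle, and Hmox1, heme oxygenase 1, at 725 and 893 FPKM. Many of these targets also answer to other factors such as NF-κB, and the part of AP-1 in their values was not tested. The list was drawn up with earlier results of these libraries known, so its count is no independent evidence.

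**Figure D5:**
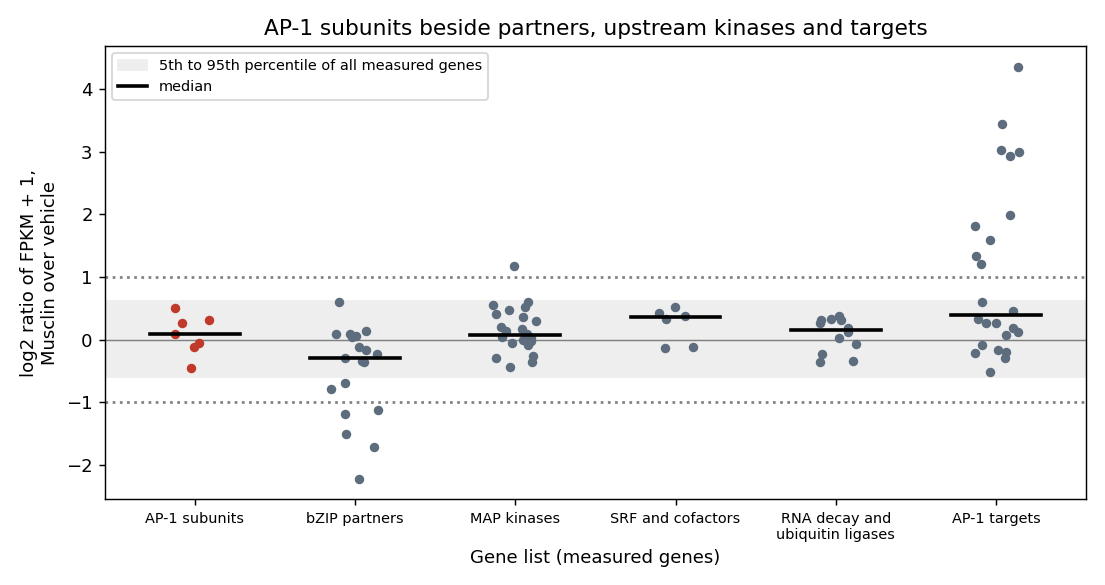
Log2 ratio of FPKM + 1, Musclin over vehicle, of measured genes in each list (points) with the list's median (black bar), 1 library per group. The grey band is the 5th to 95th percentile of measured genes (-0.59 to 0.62) and dotted lines mark 2-fold. All 7 AP-1 subunits lie inside the band, 10 AP-1 targets lie above the upper dotted line, and 5 basic leucine zipper partners lie below the lower one.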

How the data were processed

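RNA-seq of 2 samples was compared, 1 with Musclin and 1 with vehicle. The deposited table holds 88702 transcripts with FPKM values, the authors' own fold ratio per transcript, its log2, and p-values and q-values, per the file headers. StringTie, DESeq2 and edgeR are listed in the submitters' processing notes, with no role or version. The aligner, the build and the test behind the deposited p-values are not stated in the sources used here. With 1 library in each group, those p-values and q-values cannot measure variation between cultures. All 40 member transcripts have the same start and end in GENCODE vM21 (GRCm38), whose positions are printed.

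FPKM was summed per gene identifier. Ratios are on log2(FPKM + 1), for genes that reach 1 FPKM in a library. Aligned bases were recovered from steps in FPKM times length in single-exon genes of 300 bases or more with 1 transcript, of which 78.8% with Musclin and 79.1% with vehicle were whole within 0.1 bases, and were divided by 298. Intervals are 95% exact Clopper-Pearson for ratios and exact Poisson for levels, and cover counting error only. No test across genes was run. The interval and the 2-fold rule were tested on simulated data with counting error only, so that check does not cover variation between cultures. Members, gene lists and rules were chosen with earlier results of these data known. The text names all members and, per list, up to 5 genes with the largest absolute log2 ratio at 5 FPKM or more. The markers Pdgfra, Dpp4, Pi16, Lum, Csf1r, Cd68, Cd79a, Ptprc and Clec9a lie outside this rule and were named once their values were known. A list gene that this rule takes is not reported here. Alternatives were other pseudocounts, scalings, floors and transcript choices. Python 3.11.15, numpy 2.4.6, pandas 2.3.3 and scipy 1.17.1 were used.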

Additional observations from a re-analysis of the deposited data

How the results depend on the processing

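The count of AP-1 subunits past 2-fold was 0 under each of 9 alternatives, and 4 of the measured subunits had a log2 ratio above 0 under each of the 7 that apply to it. Junb ran from 0.47 to 0.52 and Jund from -0.47 to -0.39 on the log2 scale over 7 alternatives. The counts over all genes depend on the settings. Of measured genes 220 were 2-fold or more higher and 196 lower, against 400 and 360 at a pseudocount of 0.1, 97 and 71 at a pseudocount of 5, 369 and 358 with the leading transcript alone, and 418 and 392 with aligned bases. At a pseudocount of 5 the count of lower basic leucine zipper partners was 3 in place of 5, and no MAP kinase gene was 2-fold higher. With the leading transcript alone the median of the MAP kinase list was -0.03 and that of the RNA decay list -0.03, both below 0. The same setting put no MAP kinase gene 2-fold higher and 1 lower, 1 serum response gene higher and 1 AP-1 target lower, and the log2 ratio of Atf2 FPKM was -0.25 in place of -0.13. The cause was not tested. Median and upper-quartile scaling shifted all log2 ratios by less than 0.01. No paired analysis was possible because each group has 1 library. Depth limits Batf and Batf3, with 1 to 3 fragment equivalents.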
